A study of Citrus sinensis with 48 samples.

Results

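NCED is the gene that the deposited table lists under that symbol as putative 9-cis-epoxycarotenoid dioxygenase 3 of sweet orange (Entrez gene 102578064, synonym CitNCED3, 1 transcript). It is 1 of 30136 genes in the table. The rule that picks it uses its symbol and product and no measured value, and it was chosen with earlier results of these data known. RNA was measured in 48 leaf libraries of 2 citrus rootstocks, Carrizo citrange (Car), a hybrid of Poncirus trifoliata and Citrus sinensis, and Cleopatra mandarin (Cleo, Citrus reshni). Each genotype had 8 treatments with 3 biological replicates. Besides unstressed control plants (CT), heat stress is written HS, high light HL and water stress WS. Each stress was given alone, in every pair (HL+HS, WS+HS, WS+HL) and all together (WS+HL+HS). No transgene or mutant is named, and CT plants of the same genotype are the reference of each stress. The sources used here give no durations, light intensities, temperatures or plants per sample. The p-values thus measure the spread between these samples only, which may be partly technical. The table counts reads of both genotypes on the gene models of sweet orange, which is neither rootstock, and how sequence differences between the genotypes bear on a comparison of Cleo with Car was not tested.

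Abscisic acid is the plant hormone that closes stomata and switches on dehydration responses. It is made from carotenoids: 9-cis-epoxycarotenoid dioxygenases cut 9-cis-violaxanthin and 9-cis-neoxanthin in the plastid to xanthoxin, a step generally held to limit the rate of synthesis in leaves. A short-chain dehydrogenase (ABA2 in Arabidopsis) and an aldehyde oxidase with a sulfurated molybdenum cofactor finish the molecule, and cytochrome P450 enzymes of the CYP707A family remove it by hydroxylation at the 8'-position. In Arabidopsis, NCED3 is the member of the family whose transcript rises in leaves that lose water. The series compares these rootstocks under each stress alone and in every combination, which lets each stress be read on 4 backgrounds.

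The level of NCED is given as normalised CPM, read counts scaled to a common library size after adjustment of the libraries by the trimmed mean of M-values. In Car, the CT libraries stood at 4.19, 4.78 and 4.68 CPM and the WS libraries at 142, 166 and 149 CPM. WS+HL gave 135, 144 and 145 CPM in Car. Both sets of water-stressed leaves lay far above CT with no overlap between the groups. The HL libraries of Car held 16.4, 11.6 and 14.6 CPM and the HL+HS libraries 14.9, 16.3 and 15.8 CPM. HS alone left Car at 4.73, 4.52 and 3.95 CPM, within the reach of CT. Where heat met water stress, the level was low again: WS+HS gave 14.2, 12 and 10.6 CPM and WS+HL+HS 5.83, 6.16 and 6.9 CPM. The 3 WS+HL+HS libraries were each above every CT library of Car.

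In Cleo, the CT libraries stood at 9.3, 8.07 and 10.1 CPM and the WS libraries at 351, 402 and 327 CPM, the highest of the series. WS+HL gave 134, 149 and 139 CPM. All water-stressed libraries without heat thus lay above every other library of either genotype. HL left Cleo at 8.37, 9.05 and 7.89 CPM, overlapping CT, and HL+HS at 6.14, 4.5 and 7.82 CPM. HS alone gave 1.37, 0.968 and 0.787 CPM, the lowest of the series, from 83, 52 and 35 reads. WS+HS gave 7.45, 6.75 and 8 CPM and WS+HL+HS 3.36, 3.99 and 4.23 CPM, all below the lowest CT library of Cleo. From the lowest to the highest group mean NCED spanned 346-fold in Cleo and 34.7-fold in Car.

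**Figure D1:**
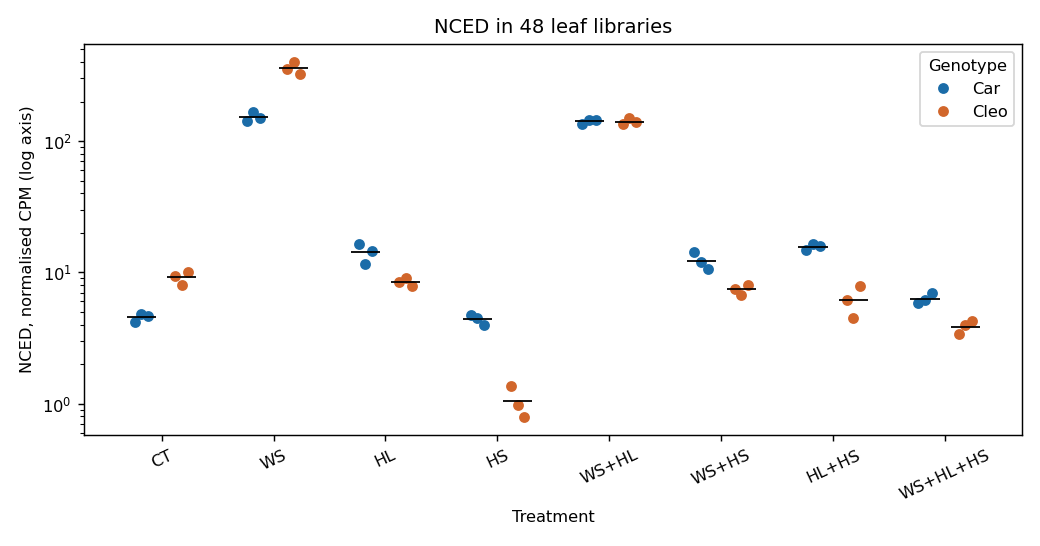
NCED in normalised CPM (log axis) in each of the 48 libraries, by treatment and genotype (blue Car, orange Cleo); points are libraries and bars the mean of 3. Water stress without heat holds the highest libraries of both genotypes (134 to 402 CPM) and heat alone in Cleo the lowest (0.787 to 1.37 CPM).

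Ordered by mean level, Cleo WS came first with 360.0 ± 38.5 CPM (SD, n = 3), followed by Car WS with 152.5 ± 12.6 (SD, n = 3), Car WS+HL with 141.4 ± 5.74 (SD, n = 3) and Cleo WS+HL with 140.9 ± 7.43 (SD, n = 3). Then came Car HL+HS with 15.7 ± 0.717 (SD, n = 3), Car HL with 14.2 ± 2.43 (SD, n = 3), Car WS+HS with 12.3 ± 1.85 (SD, n = 3) and Cleo CT with 9.16 ± 1.02 CPM (SD, n = 3). A step of about an order of magnitude separated the water-stressed groups without heat from all the others, and no group mean lay between 15.7 and 140.9 CPM. Cleo HL followed with 8.44 ± 0.581 (SD, n = 3), Cleo WS+HS with 7.40 ± 0.630 (SD, n = 3), Car WS+HL+HS with 6.30 ± 0.548 (SD, n = 3) and Cleo HL+HS with 6.15 ± 1.66 CPM (SD, n = 3). Last were Car CT with 4.55 ± 0.314 (SD, n = 3), Car HS with 4.40 ± 0.406 (SD, n = 3), Cleo WS+HL+HS with 3.86 ± 0.450 (SD, n = 3) and Cleo HS with 1.04 ± 0.297 CPM (SD, n = 3). The pairs of neighbours in this order were set by the observed means. Of these 15 pairs, 5 passed edgeR's quasi-likelihood test at an adjusted p below 0.05 and 10 did not. The 5 that passed were Cleo WS over Car WS, Cleo WS+HL over Car HL+HS, Car WS+HS over Cleo CT (adjusted p = 0.0037), Cleo HL+HS over Car CT (adjusted p = 0.00893, with overlapping libraries) and Cleo WS+HL+HS over Cleo HS. Among all genes the same pairs, where they are not a comparison met below, called 79.6% (Cleo WS+HL and Car HL+HS), 73.9% (Car WS+HS and Cleo CT), 79.5% (Cleo HL+HS and Car CT) and 71.7% (Cleo WS+HL+HS and Cleo HS) of genes in either direction. The neighbours that missed the threshold did so where 66.2% (Car HL and Car WS+HS), 62.2% (Cleo HL and Cleo WS+HS), 64.4% (Cleo WS+HS and Car WS+HL+HS), 74% (Car WS+HL+HS and Cleo HL+HS) and 81.7% (Car HS and Cleo WS+HL+HS) of all genes were called.

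Water stress raised NCED in both rootstocks, by 5.07 ± 0.144 (log2 fold change ± SE, 33.5-fold) in Car and 5.30 ± 0.142 (39.3-fold) in Cleo. Both passed the quasi-likelihood test over all 23721 genes tested (adjusted p = 8.12e-29 and 5.92e-30), with all 3 WS libraries above all 3 CT libraries in each genotype. Only 216 genes in Car and 286 in Cleo had a larger log2 fold change under WS. The response to WS did not pass as different between the genotypes (Cleo minus Car 0.23 ± 0.182, adjusted p = 0.361), with a 95% interval from -0.14 to 0.60. WS+HL raised NCED too, by 4.96 ± 0.144 in Car and 3.94 ± 0.135 in Cleo (adjusted p = 1.68e-28 and 2.57e-26), and here the rise was smaller in Cleo by 1.01 on the log2 scale (a difference of -1.01 ± 0.182, adjusted p = 1.58e-05).

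High light alone separated the genotypes. NCED rose by 1.64 ± 0.138 (3.12-fold, adjusted p = 1.50e-12) in Car, where the HL and CT libraries did not overlap. In Cleo its log2 fold change was -0.11 ± 0.135 (adjusted p = 0.576) and the libraries overlapped. The difference of the responses was -1.76 ± 0.193 (adjusted p = 4.50e-09). HL+HS gave the same picture, with a rise of 1.79 ± 0.138 (adjusted p = 1.71e-14) in Car, a fall of 0.59 in Cleo (log2 fold change -0.59 ± 0.139, adjusted p = 0.000316) and a difference of -2.37 ± 0.196 (adjusted p = 2.77e-13). Of the Cleo HL+HS libraries 2 carry a mark, "bis", in their column names, and so does 1 of the Cleo CT libraries. The value in Cleo under HL+HS was -0.59 (adjusted p = 0.000374) with the mark as a model term, and -0.78 to -0.40 (highest adjusted p = 0.0134) with 1 library left out. With the unmarked libraries alone it was -0.13 (adjusted p = 0.566) and the genotype difference -1.84 (adjusted p = 5.40e-07). That fit leaves 1 Cleo HL+HS library, replicate 3, which is assumed to vary like the other groups.

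Heat stress alone separated the genotypes further. In Cleo, NCED fell by 3.10 on the log2 scale (-3.10 ± 0.173, 8.59-fold lower, adjusted p = 1.62e-18), and 501 of the genes tested fell further. In Car its value was -0.045 ± 0.147 (adjusted p = 0.826, 95% interval -0.34 to 0.25) and the libraries overlapped. Without Car HS replicate 3 it was 0.025. The difference was -3.06 ± 0.230 (adjusted p = 3.81e-14). All 3 Car HS libraries carry the mark and no Cleo HS library does. No value from unmarked libraries therefore exists for Car or for the genotype difference under HS. Where the model held a term for the mark, the Car value was -0.047 (adjusted p = 0.822) and the difference -3.05.

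Under WS+HS and WS+HL+HS, NCED stayed far from its level under WS. In Car it was raised over CT by 1.43 ± 0.138 (adjusted p = 5.42e-12) under WS+HS and 0.47 ± 0.144 (adjusted p = 0.00415) under WS+HL+HS. The latter was 0.40 (adjusted p = 0.0624) with unmarked libraries alone, where 1 CT library of Car is left and is assumed to vary like the other groups. In Cleo it fell under WS+HL+HS by 1.24 (log2 fold change -1.24 ± 0.147, adjusted p = 7.51e-10). The change under WS+HS in Cleo was -0.30 ± 0.135, with an adjusted p of 0.0484 that does not hold. The p was 0.0993 and 0.189 without Cleo CT replicate 1 or 3 (values -0.29 and -0.23) and 0.0848 and 0.169 without Cleo WS+HS replicate 1 or 2 (values -0.31 and -0.24). The genotype differences were -1.73 ± 0.193 under WS+HS (adjusted p = 1.17e-09) and -1.71 ± 0.206 under WS+HL+HS (adjusted p = 3.28e-09). In all, 12 of the 14 stress comparisons and 6 of the 7 differences passed.

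These counts stand against a background in which many genes were called. In Car, 29.5% of all genes tested were called higher and 35.3% lower under WS, 9.69% and 8.77% under HL, 32.3% and 26.3% under HS, 28.8% and 33.2% under WS+HL, 31.9% and 35% under WS+HS, 29.5% and 31.4% under HL+HS, and 32.5% and 38.7% under WS+HL+HS. In Cleo, the shares were 31.2% higher and 33.4% lower under WS, 17.7% and 18% under HL, 27.1% and 27.4% under HS, 31.2% and 33.7% under WS+HL, 32.2% and 32% under WS+HS, 35.5% and 31.5% under HL+HS, and 37.5% and 35.1% under WS+HL+HS. The genotype difference of the response was called for 36.1% of genes under WS, 15.4% under HL, 43.7% under HS, 40% under WS+HL, 41.7% under WS+HS, 50.1% under HL+HS and 56.4% under WS+HL+HS. A call by itself therefore sets NCED apart little. Its smaller called changes were of ordinary size: 6866 genes had a larger log2 fold change in Car under WS+HL+HS, and 6081 and 8724 genes a lower one in Cleo under HL+HS and WS+HS.

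**Figure D2:**
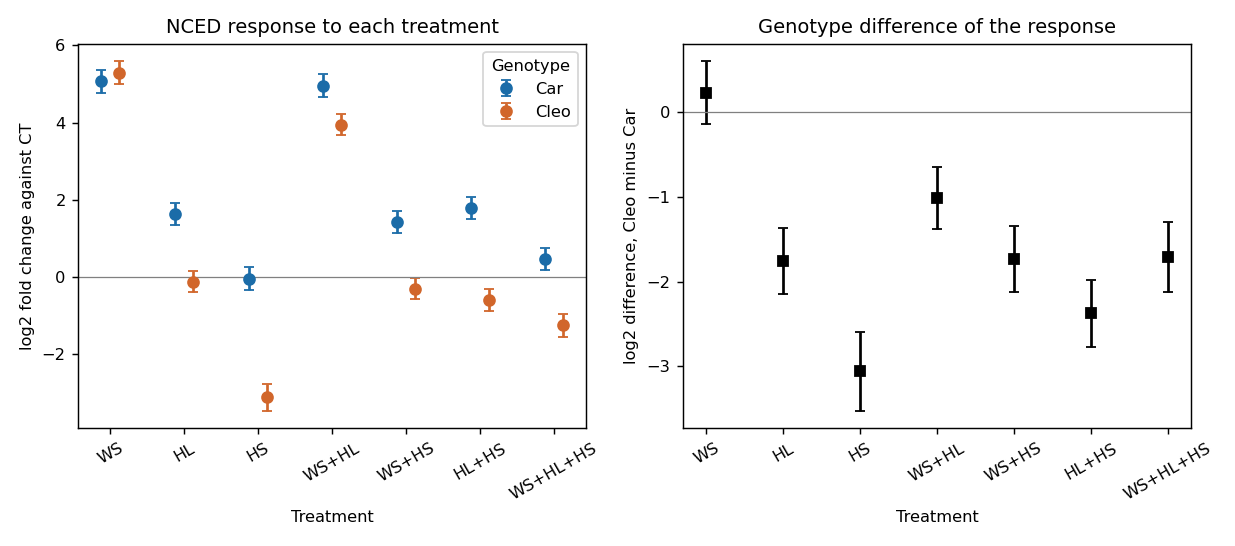
Left, log2 fold change of NCED against CT of the same genotype with its 95% interval (blue Car, orange Cleo); right, the difference of the responses, Cleo minus Car. WS is the one treatment whose genotype difference has an interval that holds 0 (0.23, -0.14 to 0.60), and the largest difference is that under HS (-3.06).

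The genotypes also differed in level at a given treatment, in a direction that turned with the treatment. Cleo was above Car by 1.01 ± 0.141 in log2 under CT (2.01-fold, adjusted p = 5.15e-08) and by 1.24 ± 0.117 under WS (2.36-fold, adjusted p = 3.06e-12). Under WS+HL the means were 140.9 and 141.4 CPM and the log2 difference was -0.0049 ± 0.116 (adjusted p = 0.997, 95% interval -0.24 to 0.23). In the other treatments Cleo was below Car: by 0.75 under HL (log2 difference -0.75 ± 0.132), 2.05 under HS (-2.05 ± 0.182), 0.73 under WS+HS (-0.73 ± 0.132), 1.36 under HL+HS (-1.36 ± 0.136) and 0.70 under WS+HL+HS (-0.70 ± 0.15), with adjusted p from 5.67e-13 to 7.20e-05. In the 7 treatments that passed, the libraries of the genotypes did not overlap. The share of all genes that differed between the genotypes was 67.4% under CT, 68.4% under WS, 69.2% under HL, 71% under HS, 68.4% under WS+HL, 65.8% under WS+HS, 74.6% under HL+HS and 75.3% under WS+HL+HS.

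The design lets a stress be added to another. Heat added to water stress took NCED from 152.5 to 12.3 CPM in Car, a log2 fold change of -3.64 ± 0.131 (12.4-fold lower, adjusted p = 1.05e-24). In Cleo it took the mean from 360.0 to 7.40 CPM, a change of -5.60 ± 0.144 (48.5-fold lower, adjusted p = 8.75e-30), and 162 of 23721 genes fell further. The change was larger in Cleo by 1.96 on the log2 scale (-1.96 ± 0.176, adjusted p = 5.29e-12), a test chosen after seeing the data. Heat added to WS+HL lowered NCED, with a log2 fold change of -4.49 ± 0.139 in Car (22.5-fold, adjusted p = 1.59e-26) and of -5.19 ± 0.148 in Cleo (36.4-fold, adjusted p = 1.98e-28). That difference, also tested after seeing the data, was -0.69 ± 0.189 (adjusted p = 0.00237). Heat added to HL left Car at 0.14 ± 0.127 (adjusted p = 0.341) and Cleo at -0.47 ± 0.141 (adjusted p = 0.00367). The Cleo value was -0.29 (adjusted p = 0.0839) without Cleo HL+HS replicate 2 and -0.10 (adjusted p = 0.693) with unmarked libraries alone, where the same single Cleo HL+HS library is left and its spread is taken from the other groups. Both combinations with water stress thus had libraries far below those of water stress without heat, with no overlap.

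Water stress, read on other backgrounds, gave changes from a rise to a fall. Added to HL it raised NCED by 3.32 ± 0.130 in Car and 4.06 ± 0.137 in Cleo (adjusted p = 5.13e-24 and 1.34e-26). Added to HS it raised it by 1.48 ± 0.136 and 2.80 ± 0.176 (adjusted p = 2.25e-12 and 2.78e-17). Added to HL+HS it lowered it, by 1.32 in Car (-1.32 ± 0.134, adjusted p = 3.17e-11) and 0.66 in Cleo (-0.66 ± 0.153, adjusted p = 0.000469); with unmarked libraries alone the Cleo value was -1.09 (adjusted p = 6.46e-05), again against 1 Cleo HL+HS library with its spread taken from the other groups. In each genotype the same stress that gave the largest rise on CT thus went with a fall where high light and heat were both present.

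High light added to WS lowered NCED in Cleo by 1.35 (-1.35 ± 0.117, adjusted p = 1.85e-11), from 360.0 to 140.9 CPM, and gave -0.11 ± 0.115 (adjusted p = 0.556) in Car. The difference, tested after seeing the data, was -1.24 ± 0.164 (adjusted p = 4.84e-07). Added to HS it raised NCED by 1.83 ± 0.137 in Car and 2.52 ± 0.180 in Cleo (adjusted p = 1.39e-14 and 1.54e-15). Added to WS+HS it lowered it by 0.97 in Car (-0.97 ± 0.133, adjusted p = 2.13e-07) and 0.94 in Cleo (-0.94 ± 0.148, adjusted p = 9.07e-07). Of the 18 comparisons of an added stress, 16 passed. Over all genes, adding WS called 63.9% (to HL), 61.3% (to HS) and 59.8% (to HL+HS) of genes in Car and 65.4%, 57.2% and 44% in Cleo. Adding HL called 24.8% (to WS), 45.8% (to HS) and 37.2% (to WS+HS) in Car and 20.1%, 63% and 57.4% in Cleo. Adding HS called 59.4% (to WS), 58.2% (to HL) and 60% (to WS+HL) in Car and 60.7%, 62.8% and 65.4% in Cleo. The genotype difference of the added effect was called for 42.4% of genes for HS on WS, 12.3% for HL on WS and 47.8% for HS on WS+HL.

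**Figure D3:**
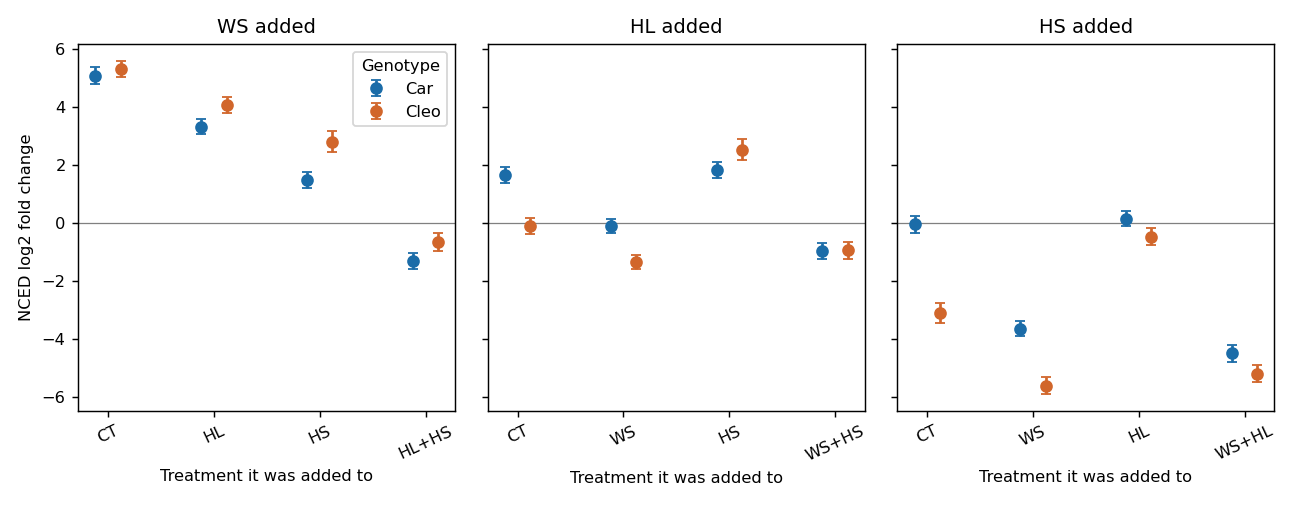
Log2 fold change of NCED when WS (left), HL (middle) or HS (right) was added to each of 4 backgrounds, with 95% intervals (blue Car, orange Cleo). The value of WS goes from 5.07 and 5.30 on CT to -1.32 and -0.66 on HL+HS, and HS has its largest falls on WS and WS+HL (-3.64 to -5.60).

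Departures from additivity compare a combination with the sum of its single stresses in log2. WS+HS lay below that sum by 3.59 in Car (-3.59 ± 0.192, adjusted p = 5.05e-18) and 2.50 in Cleo (-2.50 ± 0.238, adjusted p = 2.22e-11). WS+HL lay below it by 1.75 (-1.75 ± 0.180, adjusted p = 9.22e-10) and 1.24 (-1.24 ± 0.178, adjusted p = 6.90e-07). HL+HS lay above it in Cleo by 2.63 ± 0.228 (adjusted p = 1.15e-12) and gave 0.19 ± 0.194 (adjusted p = 0.520) in Car. The 3-way term, which sets the triple combination against what the pairs and single stresses add up to, was -1.05 ± 0.262 in Car (adjusted p = 0.00414) and -2.22 ± 0.297 in Cleo (adjusted p = 2.13e-07). Of these 8 terms 7 passed, where the share of all genes called was 18.1% (WS+HL), 37.1% (WS+HS), 27.8% (HL+HS) and 17.6% (the 3-way term) in Car and 25.2%, 37.3%, 50% and 25.3% in Cleo.

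The table's family list, chosen by words in the product names, has 11 members, of which 10 were tested. CitNCED2 (LOC102578070, 9-cis-epoxycarotenoid dioxygenase 2) reached at most 48 counts in a library and 0.766 TPM, a level per transcript length, against 285 TPM for NCED. In Cleo under HS, where NCED was lowest, NCED stood at 0.594 to 1.09 TPM, a range that holds that maximum of CitNCED2. In that group CitNCED2 had a mean of 0.0855 TPM and NCED of 0.805 TPM. Its counts summed over 3 libraries were 39 under CT and 0 under WS in Car, and 45 and 3 in Cleo. NCED6 (LOC102612016), named after an Arabidopsis seed gene, reached at most 20 counts. Both other 9-cis-epoxycarotenoid dioxygenases were thus near the floor in every group, and no fold is given for them.

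The rest of the family cuts carotenoids at other bonds. A probable carotenoid cleavage dioxygenase 4 (LOC102612995), an enzyme that degrades carotenoids in plastids, moved against NCED under WS. Its log2 fold change was -3.04 ± 0.10 in Car and -4.32 ± 0.10 in Cleo, from 207.0 ± 9.41 to 25.1 ± 0.732 CPM and from 143.3 ± 21.7 to 7.21 ± 1.55 CPM (SD, n = 3 each). When heat was added to WS, it rose by 1.99 ± 0.09 and 3.47 ± 0.10 (adjusted p = 3.82e-21 and 6.04e-28). Under HS alone it fell by 0.48 in Car and rose by 1.21 in Cleo, where NCED fell. The second gene of that name (LOC102621234) was low, at 11.8 TPM or less in every library. It rose under WS in Cleo (5.37 ± 0.38, from 27 to 1084 counts over 3 libraries) and had a value of -0.63 ± 0.29 in Car (adjusted p = 0.0585). Carotenoid 9,10-cleavage dioxygenase 1 (LOC102616031), which makes volatile ionones, stayed at 638.2 to 1717 CPM in every group. The related LOC102615521 fell under WS by 1.67 in Car and 2.27 in Cleo. The carotenoid cleavage dioxygenase 8 homologs, of the strigolactone pathway, were low: LOC102612266 was at 0 counts in all Cleo groups and at 34 counts under CT and 355 under WS in Car, and LOC102611969 never passed 47 counts in a library. The 9,10-cleavage gene LOC102612868 reached at most 50 counts, and dioxygenase 7 (LOC102626434) was left out by the filter. In all, under WS, 3 of the 10 tested members were called higher and 4 lower in Car, and 3 higher and 3 lower in Cleo, with a median log2 fold change of -0.18 and 0 beside -0.077 and 0 over all genes. With sums under 3 counts in a group of libraries raised to 3, the family's medians were -0.18 and 0.060. Of all genes tested, 29.5% (Car) and 31.2% (Cleo) had a higher call under WS. A lower call was found for 35.3% (Car) and 33.4% (Cleo), and 10 members are too few to tell the family from this background.

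Upstream of NCED, carotenoid synthesis genes moved mostly down. Of 26 members tested, 2 were called higher and 15 lower under WS in Car, and 4 higher and 16 lower in Cleo, with median log2 fold changes of -0.49 and -0.74. Under WS+HS the counts were 0 and 19 in Car, and 3 and 16 in Cleo, beside 31.9% and 35% of all genes in Car and 32.2% and 32% in Cleo. HL alone gave 4 higher and 0 lower in Car, and 10 higher and 1 lower in Cleo. The shares of all genes under HL were 9.69% and 8.77% in Car and 17.7% and 18% in Cleo. Beta-carotene hydroxylase (LOC102578021), which makes zeaxanthin, was an exception and followed NCED in part. It rose under WS by 1.74 ± 0.08 in Car, from 101.0 ± 5.40 to 337.7 ± 7.29 CPM, and by 2.87 ± 0.08 in Cleo, from 214.5 ± 11.9 to 1568 ± 153 CPM (SD, n = 3 each). With heat on top of WS it fell by 1.71 in Car and 1.62 in Cleo (adjusted p = 2.21e-21 and 4.30e-21). Zeaxanthin epoxidase (LOC102577984), which makes the epoxides that NCED cuts, fell under WS by 1.02 in Car and 0.67 in Cleo and fell further when heat was added, by 0.66 and 0.68. The phytoene desaturase-like gene (LOC102616616), of an early step, fell under WS by 1.29 in Car and 1.22 in Cleo. Under HS it fell by 2.06 in Car and rose by 0.80 in Cleo.

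Downstream of NCED, genes of the last steps of synthesis moved in both directions under WS. ABA2, the short-chain dehydrogenase that acts on xanthoxin in Arabidopsis, fell under WS by 1.46 in Car (-1.46 ± 0.07, from 126.4 ± 2.46 to 46.0 ± 1.82 CPM) and by 1.93 in Cleo (-1.93 ± 0.07, from 186.0 ± 6.44 to 48.7 ± 4.37 CPM; SD, n = 3 each). ABA2 was named by its symbol and is in none of the lists, so the counts of list members leave it out. Abscisic-aldehyde oxidase (LOC102577956), which makes abscisic acid itself, fell by 0.39 and 0.86, and the abscisic-aldehyde oxidase-like gene (LOC102613995) by 2.21 and 2.13. An indole-3-acetaldehyde oxidase-like gene (LOC102613694), named for auxin synthesis, fell by 1.11 and 2.88. The 2 main molybdenum cofactor sulfurase genes, which activate aldehyde oxidases, moved in opposite directions. LOC102577967 rose by 1.10 ± 0.10 in Car and 1.41 ± 0.10 in Cleo, and LOC102611145 fell by 1.94 and 1.68. The sulfurase-like genes LOC102617954 and LOC102629386 reached at most 77 and 127 counts in a library. Heat added to WS raised the oxidase LOC102577956 by 1.17 ± 0.09 in Cleo (adjusted p = 2.34e-14). In Car its value was 0.23 ± 0.09, a call lost without Car WS replicate 1 (0.20) or 3 (0.21) or Car WS+HS replicate 1 (0.20) or 2 (0.14), with adjusted p from 0.0877 to 0.251. The short-chain dehydrogenase reductase 2a gene (LOC102611586), whose part in this pathway is not known from these files, had 9 counts under CT and 160 under WS in Car, 20 and 162 in Cleo, and 2196 and 5812 in Cleo under WS+HL and WS+HL+HS. The list of last steps has 20 members, 13 of them tested, and includes galactose oxidase-type genes called GLOX that are not known to make abscisic acid: LOC102614711, LOC102615338, LOC102618146 and LOC102618310 reached at most 234, 294, 101 and 149 counts in a library, and LOC102618716 reached 2453. Under WS, 4 were called higher and 6 lower in Car, and 6 higher and 5 lower in Cleo. The median log2 fold change was -0.31 in Car and 0.695 in Cleo, beside -0.077 and 0 over all genes. Among all genes, calls of a rise made up 29.5% (Car) and 31.2% (Cleo). Calls of a fall came to 35.3% (Car) and 33.4% (Cleo). Whether the 13 tested members depart from such shares was not tested.

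**Figure D4:**
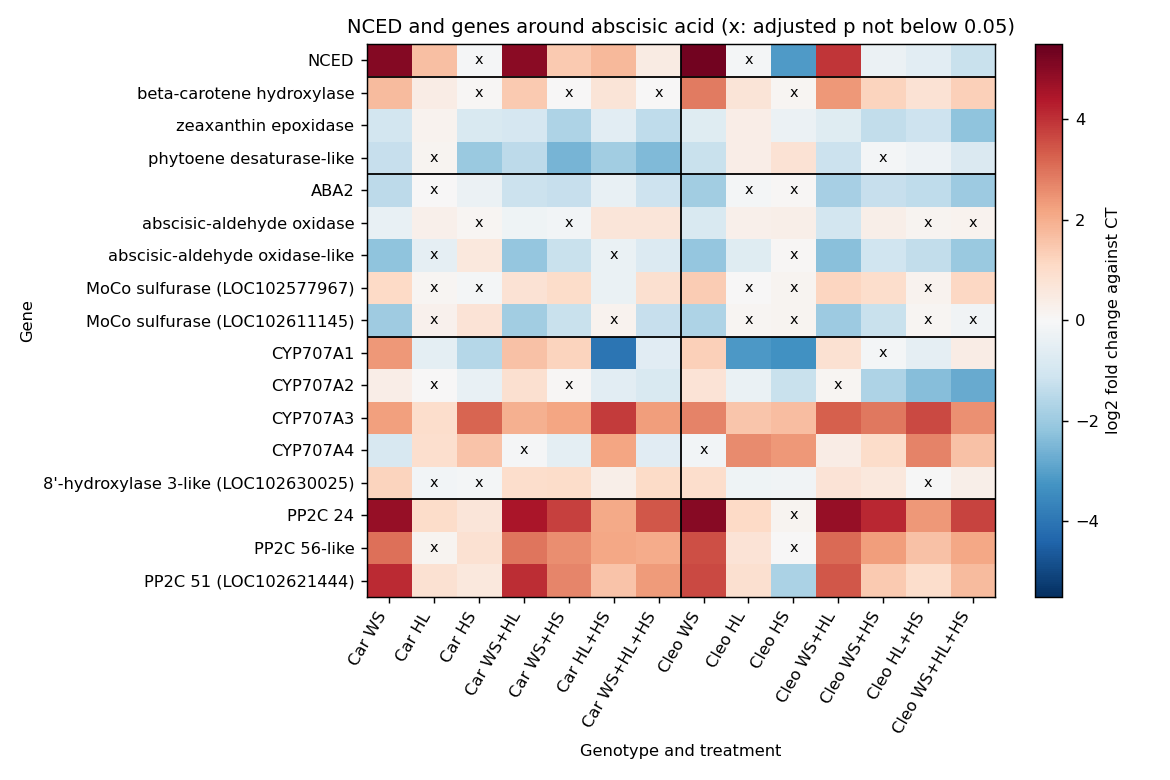
Log2 fold change against CT (colour) of NCED, carotenoid precursor genes, genes of the last steps of synthesis, 8'-hydroxylases and PP2C phosphatases in the 14 stress comparisons, Car left and Cleo right; an x marks an adjusted p of 0.05 or more. The PP2C and carotenoid precursor genes shown are the 3 of lowest p from each list in these comparisons, so large changes were part of their choice. NCED and the PP2C genes are strongly red under WS and WS+HL in both genotypes. Under WS+HS the PP2C genes keep values of 2.58 to 3.76 in Car, where NCED is at 1.43, and NCED is at -0.30 in Cleo.

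Removal genes responded in separate ways. Of the 7 hydroxylase genes, all tested, 4 were called higher and 1 lower under WS in each genotype. Over all genes, WS gave higher calls for 29.5% (Car) and 31.2% (Cleo). It gave lower calls for 35.3% (Car) and 33.4% (Cleo). A list of 7 genes is too short to be set apart from these values. CYP707A1 rose under WS by 2.39 ± 0.17 in Car and 1.33 ± 0.16 in Cleo and fell under HS by 1.56 in Car and 3.31 in Cleo. It fell by 1.16 in Car and 1.46 in Cleo when heat was added to WS, from 26.6 ± 1.45 to 11.9 ± 0.777 CPM and from 46.1 ± 1.93 to 16.8 ± 2.2 CPM (SD, n = 3 each), where NCED fell much further. CYP707A3 rose under every stress in both genotypes. Under WS it gained 2.26 ± 0.10 in Car and 2.73 ± 0.11 in Cleo, and under HS 3.22 ± 0.11 in Car, from 6.79 ± 1.48 to 63.3 ± 2.22 CPM, and 1.70 ± 0.11 in Cleo, from 4.49 ± 0.871 to 14.6 ± 1.01 CPM (SD, n = 3 each). Its level under WS+HS (30.2 ± 0.758 and 33.4 ± 1.39 CPM) was near that under WS (32.6 ± 0.281 and 29.8 ± 2.68 CPM), with log2 differences of -0.11 (adjusted p = 0.321) and 0.16 (adjusted p = 0.139). CYP707A4 rose under HS by 1.58 ± 0.11 in Car and 2.38 ± 0.12 in Cleo, and under HL by 0.92 and 2.61. Under WS it fell by 0.89 in Car and gave -0.16 in Cleo (adjusted p = 0.286). CYP707A2 rose little under WS (0.35 and 0.74), and heat added to WS lowered it by 0.28 in Car and 2.44 in Cleo. LOC102630025, listed as an 8'-hydroxylase 3-like gene, rose under WS by 1.22 ± 0.06 and 0.97 ± 0.06. The other members, LOC102624171 and LOC102630489, reached at most 129 and 141 counts in a library. In Cleo under HS, where NCED was at its lowest, CYP707A3 and CYP707A4 were both above CT and CYP707A1 and CYP707A2 both below.

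The list of genes of the response to abscisic acid holds receptors, phosphatases, kinases and ABI5-type transcription factors. Of its 31 tested members, 19 were called higher and 7 lower under WS in Car, and 20 higher and 3 lower in Cleo, with median log2 fold changes of 0.41 and 0.22. The medians of all genes were -0.077 (Car) and 0 (Cleo). Their higher calls under WS were 29.5% (Car) and 31.2% (Cleo), and their lower calls 35.3% (Car) and 33.4% (Cleo). Higher calls were thus a larger part of this list and lower calls a smaller one, a difference that was not tested. Protein phosphatases 2C are negative regulators of the response whose genes the hormone itself induces in Arabidopsis. The phosphatase 2C 24 gene (LOC102611031) rose under WS by 4.81 ± 0.09 in Car, from 38.7 ± 5.24 to 1087 ± 57.0 CPM, and by 5.02 ± 0.09 in Cleo, from 25.6 ± 2.06 to 831.6 ± 54.1 CPM (SD, n = 3 each). Heat added to WS lowered it by 1.05 and 0.87, to 524.0 ± 23.6 and 453.7 ± 13.6 CPM, while NCED fell by 3.64 and 5.60. Phosphatase 2C 56-like (LOC102623733) rose under WS by 3.02 and 3.55 and fell by 0.44 and 1.24 with heat. Phosphatase 2C 51 (LOC102621444) rose by 4.08 and 3.61 and fell by 1.41 and 2.18. All 3 stayed above CT under WS+HS in both genotypes, where NCED was 1.43 above CT in Car and within 0.30 of it in Cleo. These 3 were chosen as the members of the list with the lowest p in the stress comparisons. Large changes were thus part of their choice, and values of the other members are not given.

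Of 6 tested transport members, 2 were called higher and 1 lower under WS in each genotype. The shares of all genes called higher under WS were 29.5% (Car) and 31.2% (Cleo). Those called lower made up 35.3% (Car) and 33.4% (Cleo), and 6 members are too few to set this list apart from such shares. The ABC transporter G family member 22 gene (LOC102614268), known in Arabidopsis from stomatal regulation, fell under WS by 0.72 and 0.83 (in Car by 0.46 without CT replicate 2) and under HS by 1.84 and 2.44. NRT1/PTR family 4.6 (LOC102607539), an importer of abscisic acid in Arabidopsis, rose under HL by 1.79 in Car and 1.90 in Cleo. Its values under WS were -0.03 (adjusted p = 0.894) and 0.23 (adjusted p = 0.154). ABC transporter G family member 31 (LOC102619253), an importer in Arabidopsis seeds, had values of -0.65 and 0.75 under WS (adjusted p = 0.0834 and 0.0642).

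A list of genes whose Arabidopsis relatives act on NCED3 has 10 members, of which 6 were tested. Under WS, 2 were called higher and 4 lower in Car, and 2 higher and 3 lower in Cleo. A gene with the symbol NAC is listed as NAC domain-containing protein 2-like, a transcription factor. It rose under WS by 4.91 ± 0.12 in Car, from 6.24 ± 1.17 to 187.9 ± 8.01 CPM, and by 2.09 ± 0.10 in Cleo, from 13 ± 1.39 to 55.1 ± 4.58 CPM (SD, n = 3 each). It followed NCED under HL in Car (2.70, beside -0.13 in Cleo, a value that did not pass) and under HS in Cleo (-1.48, beside -0.09 in Car, a value that did not pass). With heat added to WS it fell by 1.32 in Car and gave 0.03 (adjusted p = 0.832) in Cleo, where NCED had its largest fall. NAC domain-containing protein 2 (LOC102613538) rose under WS by 2.23 and 1.97. In Arabidopsis, the receptor kinase BAM1 takes part in the signal from root to leaf that raises NCED3. A gene listed as BAM1 (LOC102608073) fell under WS by 2.62 and 2.44 and rose by 1.65 and 1.43 when heat was added to WS. Another gene listed as BAM1 (LOC102612034) and a BAM3 gene (LOC102618381) reached at most 1126 and 1956 counts in a library. Their values are not given, since they were not among the genes of lowest p. Over all 7 lists, 99 of 113 members were tested. Under WS, 36 were called higher and 38 lower in Car and 41 higher and 32 lower in Cleo, to be read beside the 29.5% and 31.2% of all genes called higher and the 35.3% and 33.4% called lower.

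Likeness to NCED was measured over the 16 group means of log2 CPM, with the mean of each genotype taken off. The 10318 genes compared were of sufficient level and had a product not given as uncharacterized. Products listed as hypothetical protein were kept. Such likeness describes a pattern shared by groups of the same libraries. The highest Pearson r were 0.953 for LOC102616998 (hypothetical protein), 0.953 for LOC102618375 (probable histone-arginine methyltransferase 1.4), 0.951 for LOC102618037 (CCR4-NOT complex subunit 9, of mRNA deadenylation), 0.943 for LOC102622602 (TRAPP subunit 2-like, of vesicle transport) and 0.943 for LOC102611093 (hypothetical protein). In all, 80 genes had an r above 0.9. The lowest were -0.951 for LOC102617174 (hypothetical protein), -0.946 for LOC102627010 (phosphoribosylanthranilate isomerase, of tryptophan synthesis) and -0.946 for LOC102628623 (a pentatricopeptide repeat protein). The changes of these genes were smaller than those of NCED. LOC102616998 rose under WS by 1.73 ± 0.08 in Car, from 56.5 to 187.1 CPM, and by 1.71 ± 0.08 in Cleo, from 63.2 to 206.6 CPM. Heat added to WS lowered it by 1.31 and 1.65. LOC102618037 rose by 0.52 and 0.76 and fell by 0.73 and 1.01. Without taking off the genotype means, 2 of the 5 highest kept their place among the 5 highest and 0 of the 3 lowest theirs. The r of LOC102618375, LOC102622602 and LOC102611093 was then 0.778, 0.678 and 0.625. Over the 48 libraries 3 of the 5 highest and 2 of the 3 lowest kept their place.

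**Figure D5:**
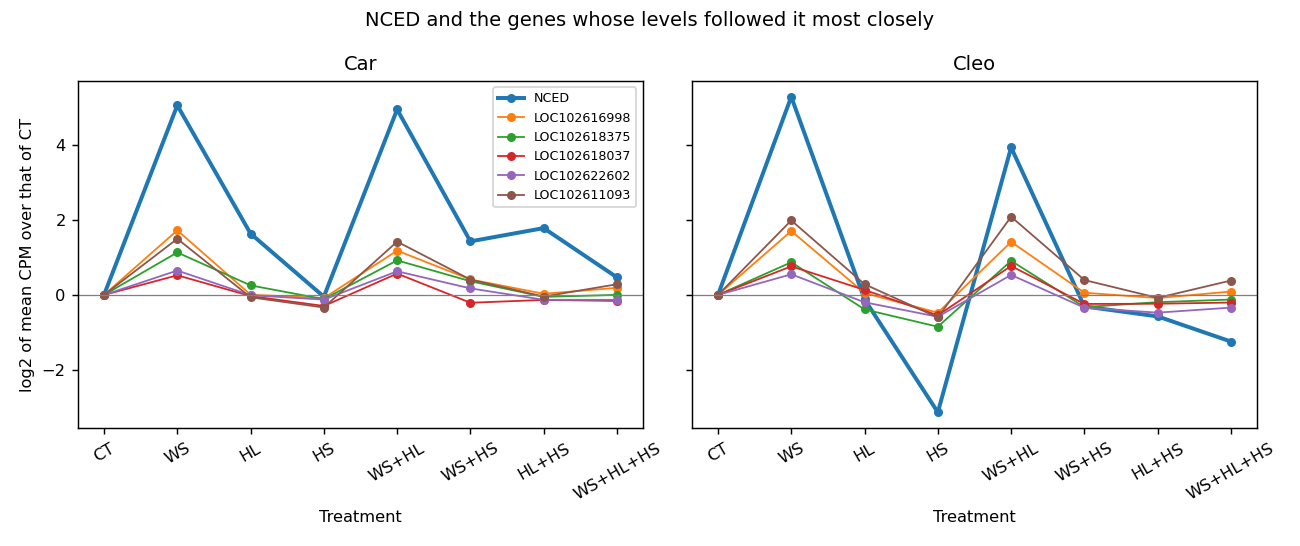
Log2 of the mean CPM over that of CT, by treatment, for NCED (thick line) and the 5 genes of highest r over 16 group means, in Car (left) and Cleo (right). All peak under WS and WS+HL, with a rise of 5.07 and 5.30 for NCED and of at most 2.09 for the others, and the fall of NCED under HS in Cleo (-3.10 in the fit) is far larger than that of the others.

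The genes next to NCED, in their order on DVS_A1.0 (a second assembly of sweet orange, annotated by RefSeq), had far smaller values. On one side lie LOC102625912 (polyadenylate-binding protein-interacting protein 9) and ETR1, an ethylene receptor gene, and on the other LOC102606860 (bystin, of ribosome assembly) and LOC102617863 (GLO1, glycolate oxidase of photorespiration). ETR1 rose under WS by 0.42 in Car and 0.89 in Cleo and fell by 0.66 in Cleo when heat was added. GLO1 fell under WS by 1.21 and 1.79. LOC102625912 fell by 0.36 in Car and gave -0.14 in Cleo (adjusted p = 0.218). The values of LOC102606860 were 0.18 in each genotype. The call in Car was lost without Car CT replicate 2 (0.14, adjusted p = 0.109) or Car WS replicate 1 (0.17) or 3 (0.16). The call in Cleo was lost without Cleo CT replicate 1 (0.16) or Cleo WS replicate 1 (0.17) or 3 (0.16).

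Libraries held 40294831 to 58392998 counts and NCED 35 to 18655 of them. Leaf transcripts were abundant: the 17 genes of the leaf list (RuBisCO small subunit and chlorophyll a-b binding proteins) summed to group means of 5304 to 47150 CPM, and none was at 0 in all libraries. This sum moved with water stress and also without it. It was 7675 and 5304 CPM under WS in Car and Cleo against 27350 and 37420 under CT, 11930 and 7489 under WS+HL, and 12830 and 12090 under WS+HS, where NCED was low. Without water stress, it was 27920 and 47120 CPM under HL, 47150 and 46440 under HS, and 40990 and 24670 under HL+HS. Other lists, picked by product names, were summed too. Their group means ran from 14.3 to 51.1 CPM for 13 genes with stomatal or epidermal patterning names. They ran from 87.4 to 426.5 for 15 vascular genes and 71.1 to 247.7 for 13 genes of dividing cells, with all their genes detected. Most genes of the first list are epidermal patterning factor genes. Its highest counts, though, were of the transcription factor FAMA (20366 over all libraries), the guard cell channel SLAC1 (19391) and patterning factor-like 9 (13807). Its sum mixes these kinds of gene and is not a level of guard cells alone. It was 32.9 and 19.5 CPM under CT in Car and Cleo, and 26.9 and 30.3 under WS. Under HS it was 51.1 and 14.3 CPM, and under WS+HS 26.0 and 16.6. Vascular genes, near the site of NCED3 expression in Arabidopsis, were at 307.8 and 426.5 CPM under CT and 272.5 and 263.0 under WS. They were at 405.4 and 297.3 CPM under HS and 140.1 and 197.6 under WS+HS. Most counts of this vascular list were of LOC102631158 (298404 over all libraries) and LOC102624260 (152886). The part of these lists in the NCED values was not tested, and in whole leaves fewer cells of a type and less RNA per cell cannot be told apart.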

How the data were processed

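Leaf RNA of 48 samples (Maxwell kit) went into stranded, poly(A)-selected libraries, per the labels' protocols. The submitters' processing notes name FastQC 0.11.7, HISAT2 2.1.0 and StringTie 2.1.3b. The sources used here do not say how strand and multiply aligned reads were handled in counting. The deposited table, on gene models of the Csi_valencia assembly per the file headers, holds counts, FPKM and TPM by gene and library. The deposited counts were used for tests, the TPM deposited by the authors for levels between genes and an alternative, and the FPKM of the authors for nothing.

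The tests used edgeR 4.0.16 in R 4.3.3: filterByExpr over 16 groups (23721 genes kept), TMM, robust dispersions, a quasi-likelihood fit of 16 group means to 48 libraries (32 residual degrees of freedom) and Benjamini-Hochberg adjustment over all genes within each comparison, called below 0.05. SE were back-calculated from F and can be too small near 0 counts. The 55 planned comparisons, 3 added after seeing the data and the pairs of neighbouring group means, set by the data, are those in the text. NCED, the lists and the tests were chosen with earlier results of these data known. Named genes were NCED, all tested members of the family, last-step and removal lists, up to 3 of lowest p from each other list, the 5 most and 3 least like NCED (mean log2 CPM of at least 3), ABA2 by symbol and the 4 neighbours. Fitted fold changes of genes with few counts depend on the prior count. Alternatives were DESeq2 1.42.0, its size factors, no filter, a replicate block, only the comparison's libraries, the column mark as a term or unmarked libraries only (11 libraries are marked), each library left out, and limma 3.58.1 on log2(TPM + 1) and log2(TPM + 0.1). No 2 replicates agreed within sampling noise (mean chi-square per gene at least 4.17 over 48 pairs).

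The fit was tested on simulated counts before use. Gene names matched a RefSeq table for 23878 genes. Sequences were not used here, so the planned look at promoter motifs was not run.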

Additional observations from a re-analysis of the deposited data

Results flagged for a closer look

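The response of NCED differed between the genotypes by a test of the difference itself (an interaction contrast in edgeR's quasi-likelihood fit) in 9 comparisons, and each is a value of Cleo minus Car in log2. Against CT these were -1.76 under HL, -3.06 under HS, -1.01 under WS+HL, -1.73 under WS+HS, -2.37 under HL+HS and -1.71 under WS+HL+HS. For a stress added to another they were -1.96 for HS on WS, -1.24 for HL on WS and -0.69 for HS on WS+HL, tests added after seeing the data. All 9 are below 0, and the 6 against CT share the CT libraries of each genotype, where Cleo stood 1.01 above Car. How reads of each genotype align to sweet orange gene models was not tested.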

How the results depend on the processing

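Of 58 NCED comparisons, 49 kept their direction and their side of the threshold under every alternative that gave a value and with each library left out. Comparisons that use Car HS have no value from unmarked libraries only, since every Car HS library is marked. The 9 comparisons that did not keep both follow. The fall in Cleo under WS+HS (-0.30, adjusted p = 0.0484) lost its call with the column mark as a term (-0.30), without the filter on low counts (-0.30), with unmarked libraries only (-0.22) and with limma on log2(TPM + 0.1) and log2(TPM + 1) (-0.11 and -0.093), and ran from -0.39 to -0.23 with 1 library left out. With unmarked libraries only, calls were also lost in Car under WS+HL+HS (0.40), in Cleo under HL+HS (-0.13) and for HS added to HL in Cleo (-0.10, and -0.67 to -0.29 with 1 library left out). With limma on TPM, HS added to HL in Car (-0.13 and -0.12) and the departure of HL+HS in Car (-0.044 and -0.051), neither called, turned sign. The 3-way term in Car lost its call (-0.71, log2(TPM + 0.1)), and Cleo against Car under WS+HL gained one (-0.26, log2(TPM + 1)). That difference ran from -0.048 to 0.028, and HS in Car from -0.10 to 0.025, with 1 library left out.

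Replicate numbers did not pair the samples, since the deviations of same-numbered libraries correlated at -0.16 to 0.15 and no comparison of 14 had all 3 over 0.1. With the replicate number as a block, 1 call of 245 changed, that of NCED in Cleo under WS+HS (-0.30, adjusted p = 0.0550).

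Other values turned sign: LOC102613538 (0.21 by both limma fits, a call at adjusted p = 0.0111, beside -0.060 and no call), NAC (-0.0011 by both DESeq2 settings, and from -0.032 without Cleo WS replicate 3 to 0.084 without Cleo WS replicate 1) and LOC102606860 (0.072 and 0.070 by limma) for HS added to WS in Cleo, and ETR1 for the same in Car (-0.016 by both DESeq2 settings, and from -0.00065 without Car WS replicate 1 to 0.045 without Car WS replicate 2). Counts of list members moved for HL only: in Car 10 higher and 1 lower with only the libraries of the comparison and 12 lower with limma on log2(TPM + 1), beside 17 and 7, and 3 to 9 lower with 1 library left out (4 without Car CT replicate 2, 3 without Car HL replicate 2). In Cleo limma gave 16 or 14 higher and 24 or 24 lower, beside 29 and 12. Over all genes, HL in Car called 1118 with only its own libraries, beside 4379. TPM moved the median gene by up to -0.31 in log2 (Car under HL+HS). It moved the share of higher calls from 52.5% to 33.2% (Car HL), 48.4% to 27.7% (Car HL+HS), 46.5% to 32.7% (Car WS+HL), 49.5% to 22.7% (Cleo HL) and 50.2% to 60.3% (Cleo WS+HS). The causes were not tested.

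The lowest NCED group, Cleo under HS, rests on 35 to 83 counts per library.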
